A study of Mus musculus with 101 samples.

Results

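Stra8 and the genes that make, bind, degrade and sense retinoic acid were examined in mouse primordial germ cells (PGCs) at embryonic day 13.5. The 9 genes are Aldh1a1 (synthesis), Crabp1 and Crabp2 (binding), Cyp26b1 (degradation), Rara, Rarb, Rarg and Rxra (receptors) and Stra8 (target). They were chosen by symbol from the known pathway, with earlier results of these data known. All 9 were found among the 15423 genes of the normalized count table. All 9 passed the filter on low values, which asked for a mean of 0.5 or more among the embryos fitted together. Rarb passed it through female embryos and Cyp26b1 through male embryos, since the mean was 0.383 in 53 males for Rarb and 0.285 in 48 females for Cyp26b1.

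Retinoic acid is made from retinol by a dehydrogenation in steps, the last of which is catalysed by retinaldehyde dehydrogenases. It is carried in the cytoplasm by the CRABP proteins, is degraded by CYP26 enzymes and acts through heterodimers of RAR and RXR nuclear receptors. In the fetal ovary, germ cells that respond to it turn on Stra8 and enter meiosis, while in the fetal testis CYP26B1 made by somatic cells lowers retinoic acid and the germ cells do not enter meiosis until after birth.

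Pregnant F0 mice of the OG2 line, in which the Pou5f1 promoter drives EGFP, were dosed by mouth with benzo[a]pyrene (BaP), a polycyclic aromatic hydrocarbon, or with its sesame oil vehicle alone. Dosing began on embryonic day 6.5 and ended on day 11.5 in the dams of F1 and on day 15.5 in those of the F2 and F3 lines. EGFP-positive PGCs of single F1, F2 and F3 embryos of either sex were enriched by FACS, and their cDNA, primed with oligo(dT), was sequenced. The doses were 0.033, 0.2 and 2 mg/kg-day, and only F0 was dosed. In the vehicle groups there were 5 females and 5 males in F1, and 6 females and 6 males in either of F2 and F3. In order of dose, F1 had 2, 5 and 5 females and 2, 6 and 8 males, F2 had 3 of each sex at every dose, and F3 had 4, 2 and 4 females and 4, 4 and 3 males. Every embryo of all groups carried the transgene, and the dose groups of a sex were compared with the same vehicle embryos, those of their own generation or the 17 of all generations. The embryo names carry 56 animal numbers, and embryos with the same number were read as litter mates, which the labels do not state. Some males shared a number within a group and were counted as separate embryos. They were C4219.1 and C4219.2 (F1, 2 mg/kg-day), D1190.1 and D1190.2 (F1, 0.2 mg/kg-day), and D1390.1 and D1390.5 (F3, 0.2 mg/kg-day). The labels do not say which F2 and F3 embryos descend from the same F0 dam.

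The reads behind the values could be recovered in 99 embryos and numbered 5004382 in the smallest library and 87240533 in the largest, the median being 7789673. Libraries of 20000000 reads or more numbered 11, all from F1, and the deepest of the others had 12211582. Of these 11, 5 were females (1 vehicle embryo, 2 of the middle dose, 2 of the highest) and 6 were males (2 vehicle embryos, 1 of the middle dose, 3 of the highest). Differences were tested with limma on log2(normalized count + 0.5), two-sided, with p-values adjusted by the Benjamini-Hochberg method over all genes tested in a comparison, and called at an adjusted p under 0.05. A log2 fold change on this scale understates the change of genes with low values. Group values are mean ± SD over embryos.

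The sex labels were checked on the Y-linked gene Eif2s3y, which was at 0 in all 48 females and between 109 and 380 in the 53 males, with a median of 189. Male D1390.5, of the 0.2 mg/kg-day group in F3, stood apart. It had the lowest Eif2s3y of the males, 109, and the lowest values of the male germ cell genes Lefty1 (20.54, male median 75.1) and Lefty2 (33.8, male median 84.0). Both Lefty genes of this library lay above those of all 48 females, whose highest values were 3.85 and 3.96. Nanos2, another gene of male germ cells, was at 0 in D1390.5 and ran from 0 to 11.0 in the males. Results that rest on this library are given with and without it. The germ cell label was checked on 12 germ cell markers, all of which were in the table. Dppa5a was the most abundant of them, at 4128 ± 1427 in vehicle males and 1804 ± 481 in vehicle females, and the summed level of the 12 ran from 4500 to 12797 over all embryos.

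In vehicle embryos of all generations combined, 7 of the 9 members differed between the sexes, where 56.5% of the 13288 genes tested did. Higher in males were 3 members, Aldh1a1, Cyp26b1 and Rara, against 27.9% of all genes, and higher in females were 4, Stra8, Crabp1, Crabp2 and Rarb, against 28.6%. Rarg and Rxra were not called. Since Rarb and Cyp26b1 passed the filter on low values through the sex in which they were higher, their direction was set by it, and of the 7 members besides them 5 were called, 2 higher in males and 3 in females. The median log2 fold change of males over females was -0.13 for the members and 0.00 for all genes tested. Within generations, F1 had 6 members called (23.8% of all genes), F2 had 7 (41.1%) and F3 had 5 (32.2%). Those higher in males numbered 2 in F1 (11.0% of all genes), 3 in F2 (20.7%) and 1 in F3 (16.4%), and those higher in females numbered 4 in F1 (12.8%), 4 in F2 (20.4%) and 4 in F3 (15.8%). Groups of vehicle males and vehicle females that did not overlap at all were seen for 592 genes (4.46%), among them Stra8, Crabp1 and Crabp2. The sex difference of a member was not called as different between generations for any of the 9 genes.

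Aldh1a1, on the plus strand of chromosome 19 from 20492715 to 20643465 (GRCm38), encodes a retinaldehyde dehydrogenase that forms retinoic acid. Its normalized count in the 17 vehicle females ran from 0 to 0.991, with a median of 0.601 and 3 embryos at 0. In the 17 vehicle males it ran from 0.260 to 72.7, with a median of 22.4. All vehicle males but F1 male C3774.3, at 0.260, lay above every vehicle female. Males exceeded females by a log2 fold change of 4.39 (SE 0.36, adjusted p = 1.76e-19), with means of 27.9 ± 18.8 in males and 0.509 ± 0.368 in females. It was 3.27 in F1 (adjusted p = 0.000149), 5.10 in F2 (adjusted p = 8.77e-09) and 4.62 in F3 (adjusted p = 1.82e-07). Over all embryos, 49 males lay above the highest female, 4.24. The other 4 males were C3774.3, F3 vehicle male D3523.1 at 1.597, F2 male D3371.2 at 0.2 mg/kg-day at 0.378 and D1390.5 at 1.72.

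Crabp1 and Crabp2 encode small cytoplasmic proteins that bind retinoic acid. Crabp1 lies on the plus strand of chromosome 9 from 54764748 to 54773110. In vehicle females it ran from 88.6 to 140 with a median of 116, and in vehicle males from 8.05 to 30.5 with a median of 19.6. The sexes were fully apart in the vehicle groups and also over all embryos, where the 53 males (8.05 to 57.5) lay below the 48 females (69.0 to 150). The highest male was D1390.5, and without it the highest of the 52 others had 35.3. Vehicle means were 20.3 ± 5.29 in males and 114 ± 15.1 in females, and the log2 fold change was -2.50 (SE 0.12, adjusted p = 2.13e-34). The fold change was -2.41 in F1, -2.33 in F2 and -2.75 in F3 and was called in each.

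Crabp2, on the plus strand of chromosome 3 from 87948666 to 87953376, ran from 30.4 to 125 in vehicle females with a median of 72.0. In vehicle males it ran from 7.75 to 28.2 with a median of 14.6. Every vehicle male was below every vehicle female, but over all embryos the ranges met, with 44 of 53 males below every female and 41 of 48 females above every male. The lowest female, at 23.2, was an F3 embryo at 0.2 mg/kg-day and the highest male, at 41.7, an F1 embryo at 0.033 mg/kg-day. In vehicle embryos the log2 fold change was -2.22 (SE 0.20, adjusted p = 2.06e-17), from 16.2 ± 5.64 in males and 78.1 ± 26.5 in females. It was -2.14 in F1, -2.46 in F2 and -2.06 in F3, called in all 3 generations.

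Cyp26b1, on the minus strand of chromosome 6 from 84571414 to 84593908, encodes an enzyme that oxidises retinoic acid to inactive products. Its values were low in both sexes. Vehicle females ran from 0 to 0.523 with a median of 0.205 and 3 embryos at 0, and vehicle males from 0 to 6.39 with a median of 0.881 and 1 embryo at 0. Most vehicle males were above the range of the vehicle females, but the groups overlapped. Over all embryos, 27 of 53 males lay above the highest female, 1.08. Vehicle means were 1.45 ± 1.57 in males and 0.227 ± 0.162 in females, which gave a log2 fold change of 1.14 (SE 0.22, adjusted p = 4.76e-06). On recovered reads, where no 0.5 is added, edgeR's quasi-likelihood test gave 2.69 and DESeq2 2.74. The limma value was 1.18 in F1 (adjusted p = 0.0223) and 1.30 in F2 (adjusted p = 0.00614). In F3 it was 0.95 and missed the threshold (adjusted p = 0.0526), but edgeR called it at 2.44 (quasi-likelihood, adjusted p = 0.0154), as did DESeq2 at 2.52 (adjusted p = 0.00795), limma with a pseudocount of 1 at 0.71 (adjusted p = 0.0422) or with no filter at 0.95 (adjusted p = 0.0498), and limma without vehicle embryo D3523.1 at 1.26 (adjusted p = 0.00797) or D1388.1 at 1.10 (adjusted p = 0.0348). With litter as a replicate block F3 gave 1.004 (adjusted p = 0.0244). Over all settings the adjusted p in F3 ran from 0.00530 to 0.132, and without single embryos from 0.00797 to 0.163. The F1 call was lost without vehicle embryo C4321.6 (1.10, adjusted p = 0.0561) or D2580.2 (1.04, adjusted p = 0.0659).

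The 3 retinoic acid receptors and Rxra, their partner in DNA binding, were all expressed at low levels. Rara lies on the plus strand of chromosome 11 from 98927818 to 98974942. Vehicle females had 1.06 to 6.19 normalized counts with a median of 3.08, and vehicle males 1.36 to 12.4 with a median of 6.14. Males were higher on average, with wide overlap, and only 8 of all 53 males lay above the highest female, 8.18. Vehicle means were 6.56 ± 2.83 and 3.06 ± 1.42, a log2 fold change of 0.97 (SE 0.20, adjusted p = 2.15e-05). In F2 the value was 1.17 (adjusted p = 0.00392). It missed the threshold in F1 at 0.93 (adjusted p = 0.0610) and in F3 at 0.80 (adjusted p = 0.0705). Over the settings the adjusted p reached 0.0695 in F1 and 0.109 in F3, and without single embryos 0.201 and 0.152. With litter, read from the animal numbers, as a replicate block Rara was called in F1 at 1.10 (adjusted p = 0.00650) and in F3 at 0.80 (adjusted p = 0.0411). In F1 it was called by edgeR's quasi-likelihood test at 1.22 (adjusted p = 0.0325), by DESeq2 at 1.24 (adjusted p = 0.0153), without the deep libraries at 1.02 (adjusted p = 0.0454) and without C3774.3, itself a deep library, at 1.33 (adjusted p = 0.00398). In F3 it was called by limma without vehicle male D3402.3 at 1.001 (adjusted p = 0.0219) or vehicle embryo D1344.3 at 0.93 (adjusted p = 0.0487), and by DESeq2 at 0.89 (adjusted p = 0.04996).

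Rarb, on the minus strand of chromosome 14 from 16430839 to 16819156, is a receptor gene that retinoic acid itself induces through a response element in its promoter. It ran from 0.827 to 3.38 in vehicle females with a median of 2.14, and from 0.0945 to 0.931 in vehicle males with a median of 0.282. Only the ends of the vehicle ranges met. Over all embryos, 48 of 53 males lay below every female and 15 males were at 0, while F1 male C4219.1 at 2 mg/kg-day had 5.26, near the highest female at 5.92. Vehicle means were 0.376 ± 0.274 in males and 2.25 ± 0.680 in females, and the log2 fold change was -1.67 (SE 0.20, adjusted p = 2.52e-12). On recovered reads it was -2.55 with edgeR's quasi-likelihood test and -2.58 with DESeq2. The limma value was -1.68 in F1, -1.30 in F2 and -2.02 in F3, called in each.

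Rarg, on the minus strand of chromosome 15 from 102234938 to 102257517, had 0 to 2.73 normalized counts in vehicle females, with a mean of 1.01 ± 0.731, and 0.213 to 1.94 in vehicle males, with a mean of 0.802 ± 0.449. Rxra, on the plus strand of chromosome 2 from 27676440 to 27762957, had 1.34 to 4.17 in vehicle females, with a mean of 2.53 ± 0.933, and 0.439 to 4.25 in vehicle males, with a mean of 2.39 ± 1.02. For both genes the ranges of the sexes covered each other and the difference was within the spread between embryos. Males against females gave a log2 fold change of -0.13 (SE 0.21, adjusted p = 0.622) for Rarg and -0.10 (SE 0.18, adjusted p = 0.646) for Rxra.

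Stra8, on the plus strand of chromosome 6 from 34920163 to 34939344, is needed by germ cells to begin meiosis. In F1 the 5 vehicle females had 112, 313, 450, 617 and 743 normalized counts. The 6 of F2 ran from 93.0 to 602 with a median of 454, and the 6 of F3 from 62.9 to 620 with a median of 459. Each generation thus had vehicle females that differed several-fold, with 1 low embryo in each (C4605.2 in F1 and D3526.1 in F3). In vehicle males the range was 0 to 14.1 in F1, 0 to 3.04 in F2 and 0.585 to 4.69 in F3. The vehicle sexes did not overlap in any generation, and the log2 fold change, -7.40 in the combined fit, was -7.51 in F1 (SE 0.64, adjusted p = 2.58e-11), -7.68 in F2 (SE 0.43, adjusted p = 8.32e-15) and -7.02 in F3 (SE 0.87, adjusted p = 2.05e-07).

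The overlap between the sexes over all embryos came from a few libraries at either end. The highest males were D1390.5 at 14.7, which was 102 reads, and the deep F1 vehicle library C4232.2 at 14.1, which was 1472 reads. The lowest females were all of F3, with D3501.3 at 0.033 mg/kg-day at 9.12 (73 reads) and E0103.2 at 2 mg/kg-day at 11.4 (81 reads). The remaining 51 males were below every female and the remaining 46 females above every male. Without D1390.5 the highest male was at 14.1 and 51 of 52 males lay below every female.

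**Figure D1:**
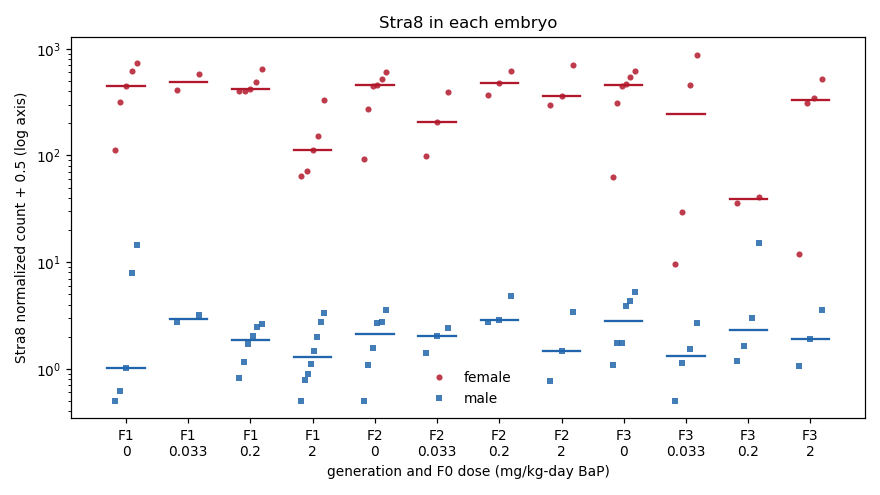
Each point is the Stra8 normalized count of 1 embryo plus 0.5 on a log axis, by generation and F0 dose of BaP (0, 0.033, 0.2 and 2 mg/kg-day), with females and males in different colours and a bar at each group median. Females of F3 at 0.2 mg/kg-day (35.7 and 40.7) lie below all 6 F3 vehicle females, and single low females are seen in several other groups.

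Per kilobase of exon, the order of the mean levels in vehicle females was Stra8 (231 ± 109), Crabp1 (142 ± 18.8), Crabp2 (59.1 ± 20.1), Rara (0.700), Rxra (0.463), Rarb (0.427), Rarg (0.238), Aldh1a1 (0.103) and Cyp26b1 (0.0423). The embryos of Crabp1 lay above those of Crabp2, and those of Crabp2 above those of Rara, without overlap. All other neighbours in that order overlapped, including Stra8 (34.9 to 412) and Crabp1 (110 to 175). In vehicle males the order per kilobase was Crabp1 (25.3 ± 6.59), Crabp2 (12.3 ± 4.27), Aldh1a1 (5.64 ± 3.81), Stra8 (1.51 ± 1.96), Rara (1.504 ± 0.648), Rxra (0.437), Cyp26b1 (0.271), Rarg (0.188) and Rarb (0.0714), and every pair of neighbours overlapped. Among the 9 members the binding proteins thus came first in males and after Stra8 in females, while the receptors were low in both sexes.

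**Figure D2:**
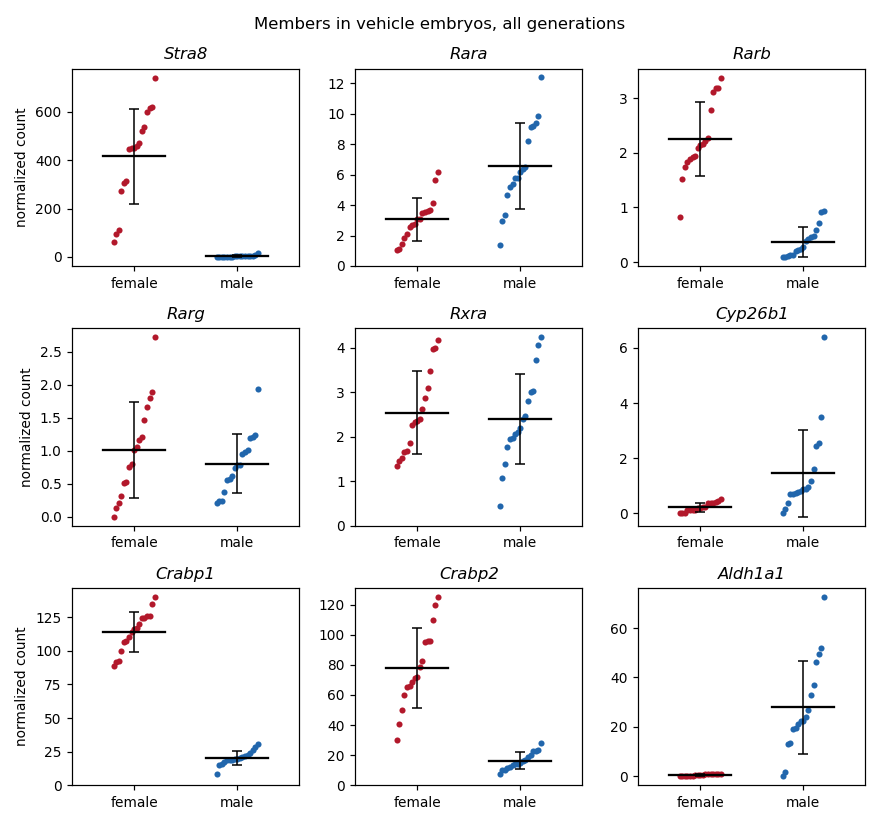
Normalized counts of the 9 members in single vehicle embryos (17 females and 17 males, 1 panel a gene), with the mean and SD of each sex. The sexes are fully apart for Stra8, Crabp1 and Crabp2, nearly so for Aldh1a1 and Rarb, and overlap widely for Rarg and Rxra.

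The other genes of the pathway were read from lists by role, and the counts are for the vehicle sex difference of the combined fit. Of 15 genes of retinol uptake and storage, 12 were in the table and 10 were tested, with 4 higher in males, 3 higher in females and a median log2 fold change of 0.03. The largest of those higher in males was Adh1, an alcohol dehydrogenase, at 5.08 (adjusted p = 8.08e-36, 27.8 ± 12.5 in males and 0.272 ± 0.225 in females), which passed the filter on low values through males. Among the called genes of this list were also Rdh13 at 0.99, Dhrs4 at 0.64, Adh5 at 0.51, Rbp4 at -0.88 and Rdh10 at -0.49. All 3 genes of synthesis were called, 2 higher in males and 1 in females (median 1.02), with Aldh1a2 at 1.02 (adjusted p = 5.08e-06) and Aldh1a3, which passed the filter through females, at -0.87 (adjusted p = 5.31e-05) beside Aldh1a1. Of 6 genes of binding and degradation, 5 were in the table and 4 tested, 2 called in each direction (median -0.59), with the fatty acid binding protein gene Fabp5 at 1.05 (adjusted p = 0.00241). Cyp26b1 passed the filter through males, and of the other 3 tested 1 was higher in males and 2 in females.

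Of 6 receptors, 5 were in the table and tested, 2 higher in males and 1 in females (median -0.10), with Rxrb at 0.62 (adjusted p = 0.00591). The 1 was Rarb, which passed the filter through females, and of the other 4 tested 2 were higher in males and 0 in females. All 12 coactivators and corepressors were tested, with 2 higher in each sex (median 0.02), among them Kat2b at 0.53, Ncoa1 at -1.23 and Ncoa2 at -0.59. Among 16 known targets of retinoic acid, 14 were in the table and 11 were tested, and 6 were higher in females and 1 in males (median -1.05), 2 of the 11 with a mean under 0.5 in males. Besides members these included Rec8, a meiotic cohesin subunit, at -3.88 (adjusted p = 2.34e-23, 1.27 ± 1.27 in males and 23.1 ± 8.53 in females), Cdx1 at -1.05 and Rarres1 at 0.73.

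Genes that work with or after Stra8 in early meiosis were nearly all higher in females. Of 22 listed, 20 were in the table and tested, 18 were higher in females and 0 in males by limma, and the median log2 fold change was -1.51. Among the 20, 1 had a mean under 0.5 in males. The most changed were Gm1564, the symbol in this table for the meiotic gene Meioc, at -4.47 (adjusted p = 1.80e-17), Rec8, Taf7l at -3.05 and Syce3 at -2.10. Of 22 genes known to act upstream of Stra8, all were tested, with 10 higher in females, 6 higher in males and a median of -0.12. Higher in females were Gata2 at -4.42, Id1 at -4.31, Id2 at -2.72 and Zglp1 at -2.39, genes of the response to BMP, and higher in males were Nanos2, which passed the filter through males, at 1.78, Max and Smad1 at 0.92 each and Tet1 at 0.84. Of the 12 germ cell markers 5 were higher in each sex (median 0.01). Of 10 markers of male germ cells 9 were in the table and 8 were higher in males and 0 in females (median 2.39), 2 of the 9 with a mean under 0.5 in females and with Dppa4 the most abundant at 438 ± 81.1 in males and 311 ± 77.6 in females.

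Aldh1a1 and Cyp26b1 are best known in the fetal testis from Sertoli and other somatic cells, so markers of other cell types were read beside them. All 16 Sertoli markers were in the table, and 11 of the 12 tested were higher in vehicle males, 0 lower, with a median log2 fold change of 2.71. Of these 12, 10 had a mean under 0.5 in the 48 females and passed the filter on low values through males, so that they had to be higher in males. Cst9 was the most abundant in males, with a mean of 413 over 53 embryos, and Aard in females, with a mean of 27.7 over 48. None of the 16 was at 0 in all embryos of either sex, though Sox9 and Amh averaged 0.0381 and 0.0103 in vehicle females. The summed normalized count of the Sertoli list ran from 14.2 to 120 in females, with a median of 25.8, and from 42.0 to 2239 in males, with a median of 566. In vehicle females the sum averaged 27.3, of which Aard gave 21.1 and Col9a3 4.62. Fewer somatic cells and less RNA per cell cannot be told apart in these bulk samples.

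By group, the summed Sertoli count of F1 vehicle males was 76.4, 349, 620, 648 and 998, and those at 0.033 mg/kg-day had 1127 and 2239. The 6 F1 males at 0.2 mg/kg-day ran from 185 to 1564 with a median of 748, and the 8 at 2 mg/kg-day from 232 to 1114 with a median of 481. F1 males at the lowest dose were thus above all F1 vehicle males. F2 vehicle males ran from 458 to 1109 with a median of 892, and the F2 dose groups, in order of dose, had 777, 967 and 1129, then 42.0, 450 and 482, then 180, 464 and 990. F3 vehicle males ran from 68.6 to 1240 with a median of 762.4, the 4 at 0.033 mg/kg-day from 536 to 1032, those at 0.2 mg/kg-day had 66.2, 110, 392 and 425, and those at 2 mg/kg-day had 145, 626 and 1044. The lowest sums of all 53 males were those of D3371.2 (42.0), D1390.5 (66.2), D3523.1 (68.6) and C3774.3 (76.4), which were also the only males whose Aldh1a1 was not above every female.

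Over the 53 males, Aldh1a1 followed the summed Sertoli count with r = 0.92 and rho = 0.87 (permutation p = 1e-05 and adjusted p = 9e-05 for each). Without the 2 males farthest from the median sum r was 0.90, and within generations it was 0.91 in F1, 0.96 in F2 and 0.95 in F3. Cyp26b1 followed it with r = 0.69 and rho = 0.65 (permutation p = 1e-05 and adjusted p = 9e-05 for each), with 0.64 without the 2 farthest males and 0.62, 0.65 and 0.77 within F1, F2 and F3. A permutation p of 1e-05 is the smallest that 100000 resamples can give. The family held 18 relations, each of the 9 members with the Sertoli sum in males or the pregranulosa sum in females, and 3 were called on r. Males with more Sertoli RNA in the library thus had more Aldh1a1 and Cyp26b1. What part the somatic RNA had in the sex differences of Aldh1a1 and Cyp26b1 was not tested.

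Crabp1 had r = -0.35 with the Sertoli sum (adjusted p = 0.0539), which was -0.22 without D1390.5 (adjusted p = 0.360) and -0.43 without the deep libraries (adjusted p = 0.0135). Of 11 pregranulosa markers, the somatic cells of the fetal ovary, 9 were in the table and none was at 0 in all embryos, with Wnt4 the most abundant in females (mean 1.49) and Kitl in males (mean 5.48). Of the 5 tested, 2 were higher in males and 1 in females (median 0.44), but Lgr5 and Wnt4 passed the filter on low values through the sex in which they were higher, and of the other 3 genes 1 was higher in males. Their summed count ran from 1.97 to 40.8 in females, with a median of 6.26, and from 3.02 to 32.6 in males. In females Aldh1a1 followed this sum with r = 0.65 (permutation p = 2e-05, adjusted p = 0.00012) and rho = 0.53 (permutation p = 0.00015, adjusted p = 0.0009), but with 0.47 without the 2 farthest females, and with 0.35, 0.49 and 0.84 within F1, F2 and F3.

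The other marker lists differed less by sex or rested on few reads. Of 17 mesonephros and stroma markers 15 were in the table and 6 tested, 1 higher in males and 2 in females (median 0.44), with Wt1 the most abundant in vehicle males (5.82) and Dcn in vehicle females (1.26). Of 6 fetal Leydig markers all were in the table and 4 tested, 2 higher in males, of which Nr5a1 passed the filter through males, and 1 in females (median 1.12), with Hsd3b1 at 4.15 in vehicle males the most abundant. Of 7 endothelial markers 6 were in the table and 3 tested, 1 higher in each sex (median 0.41), with Pecam1, which PGCs also express, at 23.6 in vehicle males and 32.8 in vehicle females. None of 10 macrophage markers tested of 11 was called by limma (0 at an unadjusted p under 0.05, median -0.32, most abundant C1qb at 4.03 and 5.15), nor any of 5 erythroid markers tested of 7 in the table and 9 listed (median 1.39). Hba-a1, the most abundant erythroid marker, had 212 ± 593 in vehicle males and 7.17 ± 26.9 in vehicle females, with the same values as its near-identical copy Hba-a2, so the reads of the pair cannot be told apart.

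**Figure D3:**
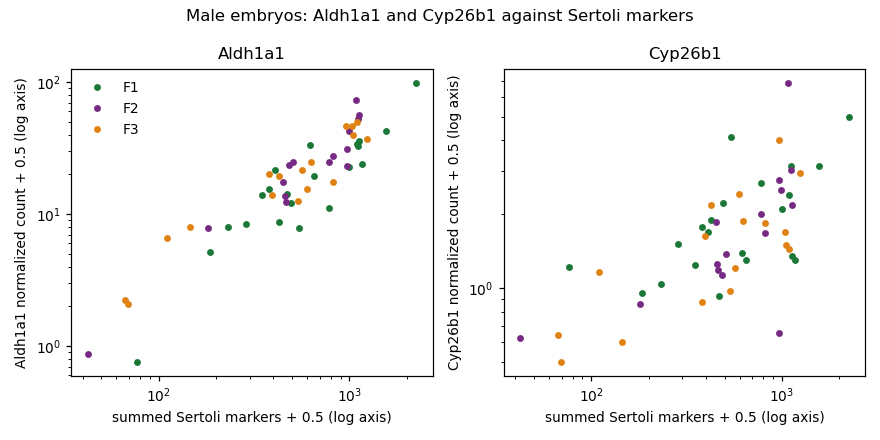
Aldh1a1 and Cyp26b1 (normalized count plus 0.5) against the summed normalized count of 16 Sertoli markers plus 0.5 in 53 males, both axes on a log scale, coloured by generation. Both genes rise with the sum (r = 0.92 and 0.69), and the 4 males with the lowest sums have the lowest Aldh1a1.

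Within the 48 females, Stra8 was compared with the 8 other members, and within the 53 males Cyp26b1 was, a family of 16 relations of which 5 were called on r. Stra8 rose with Crabp2, with r = 0.81 (permutation p = 1e-05, adjusted p = 5.33e-05) and rho = 0.71 (permutation p = 1e-05, adjusted p = 0.00016). Without the 2 females farthest from the median of Stra8 r was 0.79, and within F1, F2 and F3 it was 0.55, 0.84 and 0.90. It rose with Crabp1, with r = 0.72 (permutation p = 1e-05, adjusted p = 5.33e-05) and rho = 0.52 (permutation p = 0.00011, adjusted p = 0.000587), with 0.64 without the 2 farthest and 0.44, 0.79 and 0.89 within generations. Females low in Stra8 were thus often low in both binding proteins, most clearly in F2 and F3. The share of all genes that follow Stra8 as closely is not given here. The 5 genes most like Stra8 in females had r of 0.93 to 0.96. Within the 17 vehicle females alone the relation of Stra8 with Crabp1 was 0.54 and missed the threshold (adjusted p = 0.0912).

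Rarg was lower where Stra8 was higher, with r = -0.43 (permutation p = 0.00249, adjusted p = 0.00996), but rho = -0.31 missed the threshold (permutation p = 0.0305, adjusted p = 0.0813). It was -0.46 without the 2 farthest and -0.09, -0.39 and -0.53 within F1, F2 and F3, and in vehicle females alone it was -0.43 with an adjusted p of 0.189. Rxra had r = -0.31 with Stra8 (adjusted p = 0.0777) and rho = -0.46 (adjusted p = 0.00444), and in the vehicle females alone r was -0.64 and was called (adjusted p = 0.0355). Cyp26b1 had r = 0.29 with Stra8 in females (adjusted p = 0.0856), and 0.42 without the deep libraries, where it was called (adjusted p = 0.0141). In males Cyp26b1 rose with Aldh1a1, with r = 0.62 (permutation p = 1e-05, adjusted p = 5.33e-05), rho = 0.59 (permutation p = 3e-05, adjusted p = 0.00024), 0.56 without the 2 farthest and 0.44, 0.75 and 0.75 within generations. In the 17 vehicle males alone it was 0.60 and missed the threshold (adjusted p = 0.0752). Both also rose with the summed Sertoli count. Cyp26b1 and Crabp1 had r = -0.36 (permutation p = 0.00769, adjusted p = 0.0246) and rho = -0.27 (permutation p = 0.0525, adjusted p = 0.12), but the call rested on D1390.5, without which r was -0.29 (adjusted p = 0.0819), and in vehicle males alone it was -0.35 (adjusted p = 0.336).

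Females and males that shared an animal number, read as sisters and brothers, were paired in the 42 litters with both sexes to see whether members moved together within litters. None of the 9 relations was called on r, and the highest r was that of Stra8, 0.41 (permutation p = 0.00705, adjusted p = 0.0634), with 0.38 without the 2 farthest litters and 0.58, 0.57 and 0.31 within F1, F2 and F3. Its rho was 0.53 (permutation p = 0.00048, adjusted p = 0.00432). Brothers of sisters with high Stra8 thus ranked higher in their own low Stra8 counts.

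The genes whose pattern over the 48 females was most like that of Stra8, of 8395 with a mean of at least 5, were Gm1564 (Meioc, r = 0.96), Zfp711 (0.94), Tacc2 (0.94), Ccnd1 (0.93) and Tsc22d3 (0.93). For Crabp1 they were Pemt (0.86), Sct (0.85) and Tnnt1 (0.81), and for Crabp2 Iah1 (0.93), Dll3 (0.92) and 1810046J19Rik (0.92). Over the 53 males and 8404 genes, those most like Aldh1a1 were Akr1cl, Ptgds and Gja1 (0.95 each), of which Ptgds is also on the Sertoli list. Those most like Rara were Trim47 (0.76), Ehmt2 (0.75) and Fkbp8 (0.75).

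The exposure comparisons asked whether F0 dosing with BaP changed the members in descendants, each dose against the vehicle embryos of its sex. No member was called by limma in any of the 18 comparisons within sex and generation, which made 162 tests of members, of which 11 (6.79%) had an unadjusted p under 0.05, as had 5.10% of the tests of all genes. Over all genes limma made 20 calls (0.00836% of 239142 tests), 1 in F1 females at 2 mg/kg-day (0.00733% of the genes tested there), 19 in F2 males at 0.2 mg/kg-day (0.145%) and 0 (0%) in each of the others. The other tools also called 0 members, with 13 at an unadjusted p under 0.05 by edgeR's quasi-likelihood test (11 genes called, 0.00460%), 16 by its likelihood ratio test (192 genes, 0.0803%) and 14 by DESeq2 (153 of 233377 tests, 0.0656%). These are 8.02%, 9.88% and 8.64% of the member tests, against 4.74%, 5.18% and 5.28% of the tests of all genes.

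With generations combined, 6 comparisons gave 54 tests of members, again 0 called by limma, where 181 of 79728 tests of genes were (0.227%). At an unadjusted p under 0.05 there was 1 member test (1.85%), against 6.40% of the tests of all genes and 23.3% in females at 2 mg/kg-day, from which the 1 came. All 181 genes were called in females at 2 mg/kg-day, 1.36% of those tested there, and this count was 0 without the deep libraries, chosen as an alternative after seeing the data, and 1 with generation as a term. edgeR's quasi-likelihood and likelihood ratio tests and DESeq2 called 0 members and had 3 each at an unadjusted p under 0.05 (48 genes or 0.0602%, 177 or 0.222%, and 185 of 73356 tests or 0.252%), which is 5.56% of the member tests against 6.50%, 6.71% and 7.18% of all. The mean of the 3 doses against vehicle gave 0 calls by limma in 54 tests of members within generations (4 at an unadjusted p under 0.05, or 7.41%, against 3.25% of all genes) and 0 in 18 with generations combined (0 at an unadjusted p under 0.05, against 4.90% of all genes), and edgeR and DESeq2 also called 0 members there (2, 4 and 3 at an unadjusted p under 0.05 within generations by the quasi-likelihood test, the likelihood ratio test and DESeq2, and 2, 1 and 1 with generations combined). Over all genes these tools had 2.97%, 3.41% and 3.21% of tests at that p within generations and 3.85%, 4.11% and 4.29% with generations combined, with 0, 10 and 6 and then 5, 5 and 4 genes called. Differences of the exposure effect between sexes or generations, and of the vehicle sex difference between generations, gave 0 calls in 108 tests of members by limma (7 at an unadjusted p under 0.05, or 6.48%, against 2.28% of all genes), and limma called 0% of all genes in each of these comparisons. The 7 were 3 of Aldh1a1, 2 of Crabp1 and 1 each of Rarb and Stra8, with adjusted p-values of 0.985 or more. The members with an unadjusted p under 0.05 in limma's comparisons of a dose, or of the mean of the doses, with vehicle follow in the order of the pathway, and none passed the test across genes.

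Aldh1a1 was named in males of all 3 generations. In F1 vehicle males it was 0.260, 13.4, 19.0, 22.2 and 33.0, and in the 2 males at 0.033 mg/kg-day 35.5 and 98.7. These 2 lay above all 5 vehicle males, as did their summed Sertoli counts. Against vehicle the log2 fold change was 2.45 (SE 0.82, adjusted p = 0.722), and it was 1.49 without C3774.3, the vehicle male at 0.260, and 1.28 without the deep libraries. Over the 3 doses it was 1.12 (adjusted p = 0.9999), 0.16 without C3774.3 and -0.01 without the deep libraries. C3774.3 is itself a deep library, so both refits left it out.

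In F2, Aldh1a1 in vehicle males ran from 13.2 to 72.7 with a median of 25.5, and in the 3 males at 0.2 mg/kg-day it was 0.378, 16.9 and 23.0. Only D3371.2, at 0.378, lay below the vehicle range. The log2 fold change of -2.10 (SE 0.67, adjusted p = 0.172) was -0.59 without D3371.2 and -2.97 without D1040.1, where it passed the threshold (adjusted p = 0.0240). Over the alternatives without a left-out embryo the adjusted p ran from 0.156 to 0.675. In F3, vehicle males ran from 1.597 to 49.4 with a median of 28.9, and those at 0.2 mg/kg-day had 1.72, 6.10, 13.5 and 18.8. The lowest vehicle male was D3523.1, and the other 5, from 19.5 to 49.4, lay above all 4 exposed males, of which D1390.5 was the lowest. Against vehicle the log2 fold change was -1.38 (SE 0.63, adjusted p = 0.432), -0.77 without D1390.5 (adjusted p = 0.843) and -2.04 without D3523.1 (adjusted p = 0.0507). In F2 and F3 males at 0.2 mg/kg-day the Sertoli list moved with it, with 11 and 9 of 12 genes at an unadjusted p under 0.05, 0 called, and median log2 fold changes of -1.57 and -1.09. In F1 males at 0.033 mg/kg-day 7 of 13 Sertoli genes had an unadjusted p under 0.05, 0 called, with a median of 1.42. Of all genes tested, 9.58%, 10.6% and 6.34% had an unadjusted p under 0.05 in these 3 comparisons. The part of the Sertoli RNA in these Aldh1a1 differences was not tested.

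In F3 females at 0.033 mg/kg-day Aldh1a1 was 0.740, 1.25, 2.12 and 4.24, against 0 to 0.790 in the 6 vehicle females, whose median was 0.418. All but the lowest of the 4 lay above the vehicle range, on 6 to 40 reads each. On the log2 scale the fold change was 1.43 (SE 0.63, adjusted p = 0.990), and 2.55 with edgeR's quasi-likelihood test and 2.60 with DESeq2. The summed pregranulosa count of these 4 females was 7.52 to 40.8, against 2.57 to 8.88 in F3 vehicle females. Their summed mesonephros and stroma count was 5.82, 6.41, 15.7 and 89.8, the last in D3744.1, which also had the highest Aldh1a1 of the 4, against 3.80 to 33.6 with a median of 4.87 in vehicle females. The part of these cells' RNA in the Aldh1a1 values was not tested.

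Crabp1 in F3 males at 0.2 mg/kg-day was 20.7, 24.01, 31.1 and 57.5, against 8.05 to 26.3 in vehicle males with a median of 19.2. The highest was D1390.5. The log2 fold change of 0.79 (SE 0.26, adjusted p = 0.237) was 0.49 without it, and over the 3 doses it was 0.42 (adjusted p = 0.99998), or 0.21 without vehicle male D3402.3, the lowest at 8.05. Crabp2 in the 2 F3 females at 0.2 mg/kg-day was 23.2 and 34.9, below all 6 vehicle females (50.1 to 110, median 68.5). The log2 fold change was -1.34 (SE 0.52, adjusted p = 0.343). Summed male germ cell markers of these females were 523 (D1464.1) and 514 (D4021.1), against 239 to 490 in F3 vehicle females. Most of each sum was Dppa4 (492 and 478), which vehicle females also express (mean 311). The other markers together had 31.2 and 36.1, against 19.0 to 28.9 in F3 vehicle females. The part of these markers in the Crabp2 values was not tested.

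Among the receptors, Rara in F3 females at 2 mg/kg-day was 0.282, 2.02, 3.09 and 3.37, against 2.71 to 5.66 in vehicle females with a median of 3.33. The lowest was E0103.2, which was also low in Stra8. The log2 fold change was -0.80 (SE 0.38, adjusted p = 0.318), and -0.28 without E0103.2. Rarb in F2 males was 0, 0 and 0.252 at 0.2 mg/kg-day and 0, 0 and 0.241 at 2 mg/kg-day, against 0.0978 to 0.909 in vehicle males with a median of 0.427. These differences are of a few reads, and the log2 fold changes were -0.70 (SE 0.32, adjusted p = 0.470) and -0.71 (SE 0.32, adjusted p = 1), and -0.56 (SE 0.24, adjusted p = 0.975) over the 3 doses. For the dose of 0.2 mg/kg-day the value was -1.71 with a pseudocount of 0.1 and -0.42 with 1.

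Rarg was named in the females of all generations combined at 2 mg/kg-day. These 12 had 0.120 to 1.06 with a median of 0.347, and the 17 vehicle females 0 to 2.73 with a median of 1.02. The summed germ cell markers of the 12 exposed females were 5612 to 10082, against 4500 to 6754 in the vehicle females. Their part in the Rarg values was not tested. For Rarg the exposed females filled the lower part of the vehicle range. The log2 fold change was -0.59 (SE 0.23, adjusted p = 0.109), and -1.15 with edgeR's quasi-likelihood test and -1.16 with DESeq2. The adjusted p ran from 0.0907 to 0.162 over all settings that gave one, and DESeq2 gave none. Without single embryos the adjusted p ran from 0.0558 to 0.188.

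Stra8 was named in females of F1 and F3. In F1 females at 2 mg/kg-day it was 63.7, 71.2, 112, 153 and 334, where the vehicle females had 112 to 743. Those at 0.033 mg/kg-day had 406 and 575 and those at 0.2 mg/kg-day 403, 405, 417, 488 and 646. Females at the highest dose lay in the lower part of the vehicle range or below it, while those at the lower doses lay within it. The log2 fold change at 2 mg/kg-day was -1.62 (SE 0.64, adjusted p = 0.434), with adjusted p-values from 0.354 to 0.858 over the alternatives. The summed male germ cell markers, in which Dppa4 is the most abundant, were 233 to 478 in these females and 182 to 468 in the vehicle females. Their summed germ cell markers were 6164 to 10082, against 5285 to 6754. Their summed mesonephros and stroma markers were 6.66, 7.62, 8.498, 9.64 and 20.2, against 3.89 to 6.80. Their summed Sertoli counts, mostly Aard in vehicle females, were 19.0, 25.3, 42.1, 78.6 and 120, against 25.4 to 42.0. The highest of these, in C4258.2 and C4219.4, came from deep libraries. At 0.2 mg/kg-day, where Stra8 lay within the vehicle range, the mesonephros and stroma sum was 7.33 to 14.7 and the Sertoli sum 24.1 to 89.0. The part of these markers in the Stra8 values was not tested.

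F2 females had 99.2, 205 and 390, then 367, 478 and 613, then 296, 360 and 699 in order of dose. All but 613 and 699 lay within the vehicle range of 93.0 to 602. In F3, females at 0.2 mg/kg-day had 35.7 (D4021.1) and 40.7 (D1464.1), below all 6 vehicle females (62.9 to 620). Those at 0.033 mg/kg-day had 9.12 (D3501.3), 29.2 (D3744.1), 456 and 882 and those at 2 mg/kg-day 11.4 (E0103.2), 309, 347 and 517. Each F3 dose group thus held at least 1 female below the lowest vehicle female, which at 0.2 mg/kg-day were both females of the group. These 5 females had the highest summed male germ cell markers of the F3 females, 594 in D3501.3, 582 in E0103.2, 533 in D3744.1, 523 in D1464.1 and 514 in D4021.1, against 239 to 490 in vehicle females, whose highest was D3526.1, also the lowest of them in Stra8. Most of each sum was Dppa4 (478 to 564 in the 5), and the other 8 markers together had 26.9 to 36.1 in the 5 and 19.0 to 28.9 in F3 vehicle females. Of the 5, 3 also had summed mesonephros and stroma markers of 89.8 (D3744.1), 15.7 (D3501.3) and 12.5 (E0103.2), where D1464.1 and D4021.1 had 4.36 and 4.63 and F3 vehicle females 3.80 to 33.6 with a median of 4.87. The summed Sertoli count of E0103.2 was 67.5, against 19.2 to 42.1 in vehicle females and 16.4 to 36.7 in the other 4. In vehicle females Aard gave most of this sum. What part these markers had in the Stra8 values was not tested. The log2 fold change at 0.2 mg/kg-day was -3.11 (SE 1.23, adjusted p = 0.349, 2 embryos), and over the 3 doses it was -1.95 (SE 0.79, adjusted p = 0.635). On recovered reads the latter was -1.29 with edgeR and with DESeq2.

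Among the other pathway genes limma called 4 in the dose comparisons. In females at 2 mg/kg-day with generations combined they were the germ cell markers Dppa5a at 0.69 (adjusted p = 0.0476) and Dppa3 at 0.51 (adjusted p = 0.0481), both higher, and Stag3, a meiotic cohesin subunit, at -0.43 (adjusted p = 0.0481). No gene was called in that comparison without the deep libraries. In F2 males at 0.2 mg/kg-day it was Adh1 at -1.84 (adjusted p = 0.0335). With the compared groups alone no gene was called in this F2 comparison, and edgeR's quasi-likelihood test called 3. The summed Sertoli count of these males was 42.0, 450 and 482, against 458 to 1109 in F2 vehicle males. Its part in the Adh1 value was not tested. All other lists had 0 calls in the 18 comparisons within generations and the 6 with generations combined. At an unadjusted p under 0.05, where 5.10% of the tests of all genes within generations lay, were 11 of 186 tests of retinol uptake and storage, 5 of 54 of synthesis, 3 of 72 of binding and degradation, 3 of 90 of receptors, 8 of 216 of cofactors, 21 of 192 of targets of retinoic acid, 28 of 360 of Stra8 partners and 15 of 396 of upstream genes. For the marker lists they were 17 of 216 for germ cells, 17 of 162 for male germ cells, 34 of 222 for Sertoli, 10 of 90 for pregranulosa, 9 of 102 for mesonephros and stroma, 7 of 72 for Leydig, 2 of 54 for endothelial, 49 of 180 for macrophage and 9 of 90 for erythroid genes. With generations combined, where 6.40% of the tests of all genes lay there, the pathway lists had 3 of 60, 0 of 18, 0 of 24, 1 of 30, 4 of 72, 3 of 66, 6 of 120 and 3 of 132 in that order, and the marker lists 5 of 72, 2 of 54, 19 of 72, 5 of 30, 4 of 36, 4 of 24, 0 of 18, 4 of 60 and 8 of 30. Genes of a list are not independent, and no list was tested.

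The promoters of Stra8 and Rarb are shown, since both genes were higher in females and are known to be induced by retinoic acid receptors. Of the 9 members 8 matched a RefSeq promoter of the GRCm38.p6 build, and Crabp2 had no entry. Windows of 300 bases, 250 before to 50 after a gene's start, were searched on both strands for the hexamers AGGTCA or AGTTCA or GGGTCA or GGTTCA, the core letters to which receptor dimers bind in pairs. At least 1 hexamer was in 14358 of 32851 promoters (43.7%), and 193 (0.588%) had a direct repeat of them spaced by 1, 2 or 5 bases, 32 of them (0.0974%) by 5, 88 (0.268%) by 2 and 73 (0.222%) by 1. The window of Stra8 (chr6:34920698-34920997, plus strand) held 2 hexamers, at positions 57 and 213 counted from its 5′ end, and no direct repeat. The window of Rarb (chr14:16575427-16575726, minus strand) held 3, at positions 168, 198 and 209, and those at 198 and 209 form a direct repeat spaced by 5. Of the other members, which were searched in every window the table gives, Rara held 0, 0, 4 and 1 hexamers in its 4 windows, Rxra 0 and 3, Rarg 1 and 0, and Aldh1a1 0 and 1, while the windows of Cyp26b1 and Crabp1 held 0. Hexamers were thus found in members higher in either sex and in members not called. A match describes the letters only. Capitals mark the hexamers.
Stra8: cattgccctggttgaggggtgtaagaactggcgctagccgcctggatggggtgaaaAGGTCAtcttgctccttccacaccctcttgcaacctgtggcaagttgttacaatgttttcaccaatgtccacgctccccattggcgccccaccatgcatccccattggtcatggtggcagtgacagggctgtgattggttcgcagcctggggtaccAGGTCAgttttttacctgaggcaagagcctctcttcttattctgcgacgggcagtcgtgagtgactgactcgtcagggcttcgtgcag
Rarb: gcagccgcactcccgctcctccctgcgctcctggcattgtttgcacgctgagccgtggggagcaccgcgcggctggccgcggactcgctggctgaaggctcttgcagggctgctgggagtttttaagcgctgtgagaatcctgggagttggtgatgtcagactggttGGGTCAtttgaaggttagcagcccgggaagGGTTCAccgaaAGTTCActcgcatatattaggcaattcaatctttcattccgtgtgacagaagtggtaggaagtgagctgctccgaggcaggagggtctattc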

How the data were processed

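The deposited signal values are normalized counts per gene of 101 embryos, which the authors made by trimming reads with Trim Galore, aligning them to GRCm38 with STAR, counting them on exons with Rsubread and scaling the counts by edgeR's TMM method. TMM puts libraries on 1 scale but leaves a low value on few reads. Column sums ran from 758171 to 1594837, and 0 columns were left unmapped. Whether the counting used strand is not given in the sources used here. The symbols of the table include 19 that were written as dates.

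In 99 embryos every value was a whole multiple of 1 step (100% within 0.05 of a whole read), which gave the reads. The steps of male D4190.1 (F3, 2 mg/kg-day) and female D1388.3 (F3, vehicle) gave no reads, so that edgeR and DESeq2 were run without both. No copies were found among 184 pairs of embryos of a group (lowest chi-square per degree of freedom 5.44). Gene positions and exon lengths are from GENCODE M21 on GRCm38 and promoters from RefSeq.

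Differences were tested with limma 3.58.1 in R 4.3.3 (moderated by empirical Bayes with a trend) on log2(normalized count + 0.5), for genes with a mean of at least 0.5. A fit was made for each generation (8 groups of sex and dose), another for all generations and another of 24 groups for differences between generations. Alternatives were pseudocounts of 0.1 and 1, no filter, a minimum mean of 5, upper quartile scaling, edgeR 4.0.16 (quasi-likelihood and likelihood ratio tests), DESeq2 1.42.0, a block for litter, generation as a term, fits of the compared groups or vehicle embryos alone, and each embryo left out. Leaving out the deep libraries was chosen after seeing the data, except for the F1 dose comparisons, as was leaving out D1390.5 for correlations. The scripts were tested on simulated data. Correlations were tested by 100000 permutations (Python 3.11.15, scipy 1.17.1, numpy 2.4.6, pandas 2.3.3), and plots drawn with matplotlib 3.10.9.

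The members and lists were chosen with earlier results of these data known. Named genes are the 9 members, up to 4 called genes per pathway list and direction with the largest fold change, the most abundant gene of each marker list, the 5 genes most like Stra8 and the 3 most like each other member with a mean of at least 5, and members with an unadjusted p under 0.05 for exposure. Some genes that this rule takes are not reported here. Sox9, Amh, Dcn and the genes of the label check were named outside this rule, after their values were seen, as were the calls of 5 or fewer in a list. Litters were inferred from the animal numbers in the labels.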

Additional observations from a re-analysis of the deposited data

Results flagged for a closer look

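Each member was checked in every group of 4 to 10 embryos for a highest or lowest embryo that stood far from the others on the log2 scale, by the size of its gap against the range of the group. Of 126 such checks 12 stood apart, where chance gives about 1 in 20. Stra8 was low in F3 vehicle female D3526.1 (62.9, the others 306 to 620) and in F3 female E0103.2 at 2 mg/kg-day (11.4, the others 309 to 517). Aldh1a1 was low in F1 vehicle male C3774.3 (0.260, the others 13.4 to 33.0), in F3 vehicle male D3523.1 (1.597, the others 19.5 to 49.4) and in F3 female D4190.2 at 2 mg/kg-day (0, the others 0.423 to 0.481), and high in F1 male D2582.2 at 2 mg/kg-day (32.2, the others 7.31 to 13.7). The summed Sertoli counts of C3774.3 and D3523.1, 76.4 and 68.6, were the lowest of the vehicle males, and their part in the Aldh1a1 values was not tested.

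Crabp1 was low in F3 vehicle male D3402.3 (8.05, the others 17.4 to 26.3) and Crabp2 in F1 male D1190.1 at 0.2 mg/kg-day (8.16, the others 15.6 to 22.5). Rarb was high in F1 male C4219.1 at 2 mg/kg-day (5.26, which was 92 reads, the others 0 to 0.569), and Rara was low in D1390.5, an F3 male of the 0.2 mg/kg-day group (2.01, the others 4.92 to 5.53). Rarg was at 0 in F1 female D2510.2 at 0.2 mg/kg-day (the others 0.539 to 0.792), and Cyp26b1 was high in F1 vehicle male D2580.2 (1.597, the others 0.715 to 0.894).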

How the results depend on the processing

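Members called for sex were 7 in the combined comparison, 6 in F1, 7 in F2 and 5 in F3. With a minimum mean of 5 the count was 4 in each of these, since the members of low value were then not tested, and the other settings gave 7 in the combined comparison, 6 to 7 in F1, 7 in F2 and 5 to 7 in F3. Leaving out single embryos gave 7 in the combined comparison, 5 to 7 in F1, 7 in F2 and 5 to 6 in F3. Dose comparisons within generations gave 0 members under all settings and 0 to 1 without single embryos, the 1 being Aldh1a1 in F2 males at 0.2 mg/kg-day without D1040.1, and with generations combined 0 throughout. Relations between members called on r were 5, and 2 in vehicle embryos alone, with fewer embryos, 6 without the deep libraries and 4 without D1390.5. Litter as a replicate block gave 7 members for sex in each of the 4 comparisons and 0 for dose. It added Rara in F1 at 1.10 (adjusted p = 0.00650) and in F3 at 0.80 (adjusted p = 0.0411) and Cyp26b1 in F3 at 1.004 (adjusted p = 0.0244), and changed no other call of a member. Embryos of different groups that shared a number had correlated deviations from their group means in 31 of 43 pairs (r above 0.1), with a median of 0.22 against -0.01 between numbers. By generation these were 14 of 15 pairs in F1 (median 0.42), 6 of 15 in F2 (0.03) and 11 of 13 in F3 (0.22).

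Fold changes that turned sign were those of Rarg and Rxra for sex, never called, and of Aldh1a1 in F1 males over the doses, and the cause was not tested. Rarg in F1 (-0.02) was 0.0152 with upper quartile scaling, 0.0021 and 0.0174 with edgeR's quasi-likelihood and likelihood ratio tests, 0.0254 with DESeq2, and -0.24 to 0.20 without single embryos, above 0 without C4605.1 (0.198), D1961.1 (0.0655) or D2580.1 (0.160). Rarg in F2 (0.06) was -0.00447 with a pseudocount of 1, -0.207 and -0.210 with the edgeR tests, -0.222 with DESeq2 and -0.21 to 0.33 without single embryos, below 0 without C4988.3 (-0.140), C4992.1 (-0.00261), D2991.1 (-0.208), D3001.1 (-0.127) or D3133.5 (-0.0251). Rxra in F2 (0.02) was -0.12 to 0.17 without single embryos, below 0 without C4992.1 (-0.0416), D2991.1 (-0.0715), D2996.1 (-0.0377), D2996.2 (-0.119), D3001.1 (-0.0654) or D3001.2 (-0.0155). Aldh1a1 in F1 males over the doses (1.12) was -0.00853 without the deep libraries. Of the remaining fold changes of members, 471 under other settings and 788 without single embryos kept their direction and side of the threshold, 13 and 6 passed it and 0 and 2 no longer did. Of the correlations 27 and 11 kept both, 3 and 0 passed the threshold and 4 and 1 no longer did.

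The count of all genes called in females at 2 mg/kg-day with generations combined, 181, was 21 and 276 for pseudocounts of 0.1 and 1, 19 without a filter, 414 with a minimum mean of 5, 445 with the litter block, 27 with edgeR's quasi-likelihood test, 1 with generation as a term and 0 without the deep libraries. In F2 males at 0.2 mg/kg-day, 19, it was 12 with a minimum mean of 5, 3 and 65 with the edgeR tests, 69 with DESeq2 and 0 with the compared groups alone, and in F1 females at 2 mg/kg-day, 1, it ran from 0 to 18. For sex a minimum mean of 5 called 4758 of 8485 genes tested in the combined comparison, 2165 of 8482 in F1, 3451 of 8459 in F2 and 2530 of 8491 in F3. Groups of 2 to 4 embryos and values of a few reads limit what the dose comparisons of Aldh1a1 in females, Rarb, Rarg and Cyp26b1 could detect.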
